A study of Arabidopsis thaliana with 30 samples.

Results

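Transcript signals of 3 genes that are widely read as markers of salicylate and jasmonate defence, GRX480, SAG101 and PDF1.2, were followed in Arabidopsis thaliana leaves across 10 groups of plants, array by array. The members were the probe sets that the platform annotation names GRX480 (locus AT1G28480, on chromosome 1), SAG101 (AT5G14930, on chromosome 5) or PDF1.2 (AT5G44420, on chromosome 5). Each gene had 1 probe set, which gave 3 of 22746 non-control probe sets. All 3 were among the 15922 that passed a filter on low signals, set at the 30th percentile of mean log2 signal.

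Leaves came from 21-day-old, soil-grown plants, and each group had 3 arrays of the Affymetrix ATH1 type. Col0 is the wild type, Atwrky40 KO and Atwrky63 KO are knockout lines of the transcription factor genes WRKY40 and WRKY63, and Atwrky40.4 OE and Atwrky63.3 OE are overexpressing lines of the same genes. The design text of the series writes WRKY60 in place of WRKY63, and the sample labels were followed. Each of the 5 genotypes was sampled after high light, given for 1 h at 1000 µE per square metre and second, and without that treatment (untreated). Each genotype is represented by 1 line, the promoter behind each overexpressor is not given in the sources used here, and neither WRKY40 nor WRKY63 is named in the annotation used here, so the lines were not checked on their own transcripts. Nothing in the labels says that replicates are separate plants. The p-values thus measure only how these samples vary, and that variation may be technical.

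Salicylate and jasmonate are plant hormones that steer defence along routes that often oppose each other. Salicylate is known for defence against biotrophic pathogens, which feed on living tissue, and jasmonate, acting with ethylene, for defence against necrotrophs and wounding. GRX480, also called ROXY19, is a glutaredoxin of the CC type, a small redox protein that binds TGA transcription factors; it is induced by salicylate, and its overexpression is known to lower PDF1.2. SAG101 is a lipase-like protein that forms complexes with EDS1, a central regulator of immune-receptor signalling upstream of salicylate, and was first described as a gene of leaf senescence. PDF1.2 is a secreted plant defensin, an antifungal peptide induced jointly by jasmonate and ethylene and lowered by salicylate. WRKY40 is known as a regulator of basal defence together with its close relatives WRKY18 and WRKY60, and WRKY63 for roles in abscisic acid and stress responses.

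Signals are MAS5 intensities on a linear scale, scaled by the authors to a common level, and differences are of log2(signal + 1) with limma's standard error. A probe set was called where its Benjamini-Hochberg adjusted p from limma, over all 15922 probe sets of a comparison, was under 0.05. Arrays of the same group correlated at 0.936 to 0.979 in log2 signal. Of the 18 leaf photosynthesis genes listed as markers, 3 were named and all 3 were bright on every array (RCA, the Rubisco activator, from 23461 to 38076); of the 6 root markers, PYK10 was named and ran from 74.1 to 807. Summed over the 3 leaf markers, arrays ran from 64402 to 72039 in untreated Atwrky40 KO, against 72346 to 91838 in untreated Col0, and from 61216 to 72151 in high-light Atwrky40 KO, against 72256 to 83151 in high-light Col0. In high-light Atwrky40.4 OE the sum ran from 61658 to 71654, also below every high-light Col0 array. In the remaining groups it lay between 65018 and 82000.3. The ratio of 3' to 5' actin probes, a measure of RNA integrity, had a log2 value of 2.35 on Col0 untreated replicate 2 and of 2.32 on Atwrky63.3 OE high light replicate 3, against a median of 1.65 over the 30 arrays. Results that rest on either array are given with and without it where that changed a call. The arrays measured leaf tissue, in which fewer cells of a type and less RNA per cell cannot be told apart.

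Of the 3 leaf markers, LHCB4.1 was called in none of the 19 comparisons and RCA in 1, in which it rose after high light in Atwrky63 KO (0.34 ± 0.12; adjusted p = 0.0212). The third, LHCB4.2, a light-harvesting antenna protein, had 12622, 14351 and 12661 in untreated Atwrky40 KO, against 22448, 27537 and 19714 in untreated Col0 (-0.80 ± 0.10; adjusted p = 1.91e-06). After high light it had 9619, 10965 and 9337 in Atwrky40 KO, against 17133, 15621 and 16240.2 in Col0 (-0.71 ± 0.10; adjusted p = 1.09e-05), and the groups overlapped in neither light. It was also called higher in Atwrky40.4 OE than in Atwrky40 KO over both lights (0.50 ± 0.07; adjusted p = 5.57e-06) and lower after high light in each of the 5 genotypes, by log2 differences of -0.55 to -0.29. The root marker PYK10 fell after high light in Col0, to 74.1, 244 and 140.0 against 416, 755 and 363 in untreated Col0 (-1.82 ± 0.50; adjusted p = 0.00404), and in none of the other 4 genotypes did it pass the test. The part of these markers in the results of the same comparisons was not tested.

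After 1 h of high light GRX480 was between 2.98-fold and 7.02-fold higher than in untreated leaves in Col0, both WRKY40 lines and Atwrky63 KO. In Atwrky63.3 OE it was already at 913 ± 94.3 in untreated leaves (SD, n = 3), 6.74-fold over untreated Col0, and its difference after high light did not pass the test.

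In Col0, GRX480 had signals of 338, 403 and 476 after high light, against 71.9, 243 and 138 in untreated leaves. The lowest array after high light lay above the highest untreated one, which was replicate 2. The log2 difference was 1.58 ± 0.43 (adjusted p = 0.00409), in a comparison that called 43.9% of all probe sets. In Atwrky40 KO the signals were 674, 1111 and 789.6 after high light and 189.7, 182 and 264 in untreated leaves. The groups did not overlap, replicate 2 was the highest after high light, and the log2 difference was 2.00 ± 0.43 (adjusted p = 0.000486, with 43.3% of all probe sets called). In Atwrky40.4 OE the signals were 374, 754 and 445 after high light and 77.7, 112 and 67.0 in untreated leaves. Replicate 2 was the highest in both conditions, the groups did not overlap, and the log2 difference was 2.57 ± 0.43 (adjusted p = 2.91e-05, with 40.9% of all probe sets called).

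In Atwrky63 KO, GRX480 had signals of 368, 203 and 360.5 after high light and 21.4, 38.4 and 88.3 in untreated leaves. Untreated replicates 1 and 2 held the lowest GRX480 signals of the series, replicate 3 lay above them, and none reached the arrays after high light. The log2 difference of 2.81 ± 0.43 (adjusted p = 6.93e-06) was the highest of the 5 genotypes, where 46.5% of all probe sets were called. In Atwrky63.3 OE the signals were 339.7, 1034 and 557 after high light and 1019, 881 and 838 in untreated leaves. The 3 untreated arrays lay close together, while the arrays after high light spread widely, with replicate 1 lowest and replicate 2 above every untreated array. The log2 difference was -0.65 ± 0.43 (adjusted p = 0.215; 95% interval -1.53 to 0.24) in a comparison that called 51.2% of all probe sets, the largest share of the 19 comparisons.

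Over all kept probe sets the median log2 difference after high light lay between -0.25 and -0.17 in the 5 genotypes, and between -0.12 and -0.08 after quantile normalization, so values are also given relative to it. Relative to that median, GRX480 stood at 1.76 in Col0, 2.203 in Atwrky40 KO, 2.74 in Atwrky40.4 OE, 3.03 in Atwrky63 KO and -0.40 in Atwrky63.3 OE on the log2 scale. High light calls were common in every genotype, and a gene that passed the test there shared that with 40.9% to 51.2% of all probe sets.

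Between lines without the treatment, the Atwrky63.3 OE arrays stood apart: the lowest of them, at 838, lay above the highest Col0 array, replicate 2 at 243. The log2 difference from Col0 was 2.75 ± 0.43 (adjusted p = 0.000206), in a comparison that called 4.26% of all probe sets and in which GRX480 ranked 30th from the top of 15922. In Atwrky63 KO the log2 difference from untreated Col0 was -1.66 ± 0.43 (adjusted p = 0.0802, with 0.502% of all probe sets called). Its replicate 3, at 88.3, lay above Col0 replicate 1, at 71.9, so the groups overlapped; without either of these arrays the difference passed the test, at -2.19 (adjusted p = 0.017) without the Atwrky63 KO array and -2.10 (adjusted p = 0.0257) without the Col0 array. The WRKY40 lines lay on either side of Col0 by their means and overlapped it, with log2 differences of 0.64 ± 0.43 in Atwrky40 KO (adjusted p = 0.368, 14.3% called) and -0.68 ± 0.43 in Atwrky40.4 OE (adjusted p = 0.598, 2.45% called).

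After high light no line passed the test against Col0. Every Atwrky40 KO array was above every Col0 array, and the log2 difference was 1.06 ± 0.43 (95% interval 0.18 to 1.95), which missed the threshold (adjusted p = 0.0997) where 15.2% of all probe sets were called. Fitted on the 6 arrays of these groups alone, the same difference passed it (adjusted p = 0.00786). The other 3 lines overlapped Col0. Their log2 differences were 0.53 ± 0.43 in Atwrky63.3 OE (adjusted p = 0.485, 10.2% called), -0.42 ± 0.43 in Atwrky63 KO (adjusted p = 0.869, 0.0251% called) and 0.32 ± 0.43 in Atwrky40.4 OE (adjusted p = 0.807, 2.44% called).

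Whether a line responded to high light differently from Col0 was tested as an interaction, the difference between the log2 differences of both genotypes. For Atwrky63.3 OE it was -2.22 ± 0.61 for GRX480 (95% interval -3.47 to -0.97; adjusted p = 0.102), in a comparison that called 0.415% of all probe sets. It did not pass the test with all arrays, and it did without Atwrky63.3 OE high light replicate 2, the array at 1034, at -2.64 (adjusted p = 0.0337). For the other lines the interactions were 1.24 ± 0.61 in Atwrky63 KO (adjusted p = 0.522, 0.113% called), 0.99 ± 0.61 in Atwrky40.4 OE (adjusted p = 0.78, 0.22% called) and 0.42 ± 0.61 in Atwrky40 KO (adjusted p = 0.859, 1.03% called).

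Overexpressor and knockout of the same gene were compared over both lights. GRX480 was 6.41-fold higher in Atwrky63.3 OE than in Atwrky63 KO (log2 difference 2.68 ± 0.30; adjusted p = 5.07e-07, where 19.2% of all probe sets were called). In Atwrky40.4 OE it was lower than in Atwrky40 KO, with a log2 difference of -1.03 ± 0.30 (adjusted p = 0.0121, where 27.8% were called). The root marker PYK10 was higher in Atwrky40.4 OE than in Atwrky40 KO over both lights (1.17 ± 0.35; adjusted p = 0.0135), and its part in this and the other results of that comparison was not tested.

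Ordered by mean log2 signal, GRX480 was lowest in untreated Atwrky63 KO, followed by Atwrky40.4 OE, Col0 and Atwrky40 KO, all untreated, then by high-light Atwrky63 KO, Col0, Atwrky40.4 OE, Atwrky63.3 OE and Atwrky40 KO, and highest in untreated Atwrky63.3 OE. Each group overlapped the next one in this order. GRX480 was called in 7 of the 19 comparisons.

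**Figure D1:**
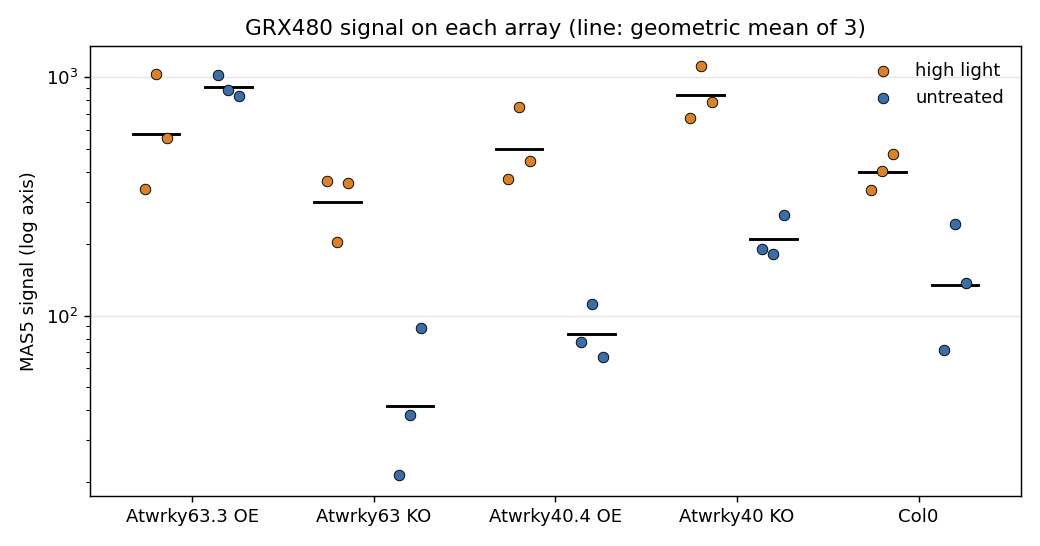
GRX480 signal (MAS5, log axis) on each of the 30 arrays by line, with high light left of untreated; points are arrays and lines the geometric mean of 3. The untreated Atwrky63.3 OE arrays lie between 838 and 1019, above the Col0 arrays of both conditions.

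Among the other glutaredoxins AT5G11930, 1 of the 17 kept of 20 named and 29 listed, was also higher in untreated Atwrky63.3 OE than in Col0. It rose in untreated Atwrky63.3 OE, to 616 ± 146 against 193 ± 76.2 in Col0 (SD, n = 3 each; log2 difference 1.71 ± 0.26, adjusted p = 0.00017). Its interaction was -2.10 ± 0.37 (adjusted p = 0.0146), the 1 called among the 17, where 0.415% of all probe sets were called. GRX480 was not called there, at a difference of similar size (-2.22 ± 0.61; adjusted p = 0.102). The AT5G11930 interaction was not followed through the alternative settings. Without single arrays the calls over all probe sets in the Atwrky63.3 OE interaction ranged from 9 to 158, against 66. AT4G15660, one of several neighbouring and closely related glutaredoxin genes whose probe sets may share transcripts, fell there (-1.06 ± 0.26; adjusted p = 0.0167), a call that ended without Col0 replicate 2 and without Atwrky63.3 OE replicate 1 or 3. In all, 1 of 17 rose and 1 fell, where 4.26% of all probe sets were called, with a median of -0.06 against -0.00313 over all probe sets.

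High light in Col0 raised 2 of the 17 glutaredoxins and lowered 3, where 43.9% of all probe sets were called. Their median was -0.19 beside -0.18 over all probe sets. AT2G30540 rose to 457 ± 11.9 after high light, against 219 ± 17.1 in untreated Col0 (1.06 ± 0.16; adjusted p = 6.77e-06), and AT1G77370 rose with a log2 difference of 0.66 ± 0.13 (adjusted p = 0.000156). AT5G18600 fell to 1392 ± 348, against 3783 ± 180.2 (-1.47 ± 0.15; adjusted p = 1.16e-08), as did AT2G20270 (-0.89 ± 0.18; adjusted p = 0.000222). GRX480's log2 difference of 1.58 in that comparison stood above that of every glutaredoxin named here.

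In untreated Atwrky40 KO, where 14.3% of all probe sets were called and the leaf marker LHCB4.2 was lower, 1 of 17 rose (AT5G11930, 0.78 ± 0.26; adjusted p = 0.045) and 4 fell, among them AT4G15690 (-1.58 ± 0.47; adjusted p = 0.024) and AT4G15700 (-1.44 ± 0.43; adjusted p = 0.0226). After high light 0 rose and 3 fell against Col0, where 15.2% were called, among them AT4G15690 (-1.69 ± 0.47; adjusted p = 0.0153) and AT1G03020 (-1.16 ± 0.36; adjusted p = 0.0283). These 5 calls each ended under between 3 and 8 of the alternative settings, among them leaving out Atwrky40 KO replicate 1 of the same light in 4 of the 5. The 3 untreated calls named here also ended without Col0 untreated replicate 2, and without the 2 arrays of highest actin ratio. Over both lights 7 of 17 were higher in Atwrky40.4 OE than in Atwrky40 KO and 0 lower, where 27.8% of all probe sets were called and GRX480 was lower. In Atwrky40.4 OE and Atwrky63 KO against Col0, in either light, 0 of the 17 passed the test, where 0.0251% to 2.45% of all probe sets were called. In high-light Atwrky63.3 OE, where 10.2% were called, 1 fell, AT2G30540 (-0.92 ± 0.16, adjusted p = 0.000585).

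SAG101 varied less between groups than GRX480. It fell after high light in Col0, to 68.6 ± 9.71 against 136 ± 11.3 in untreated leaves (SD, n = 3 each), and in Atwrky63 KO. In Atwrky63.3 OE it was 3.37-fold higher than in Col0 after high light.

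In Col0, SAG101 had signals of 79.3, 66.1 and 60.3 after high light and 124, 146 and 138 in untreated leaves. The arrays lay close together within each condition, and the conditions did not overlap. The log2 difference was -0.99 ± 0.31 (adjusted p = 0.0123), or -0.81 relative to the median of all probe sets. In Atwrky63 KO the signals were 97.8, 51.7 and 82.0 after high light and 129, 124 and 162 in untreated leaves. The conditions did not overlap, with replicate 2 the lowest after high light, and the log2 difference was -0.87 ± 0.31 (adjusted p = 0.0245). Quantile normalization ended that call (-0.58; adjusted p = 0.128), and so did leaving out either high light replicate 2 (-0.61; adjusted p = 0.154) or untreated replicate 3 (-0.75; adjusted p = 0.0907).

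The other lines gave no call after high light. In Atwrky40 KO, SAG101 had signals of 106, 150.0 and 114 after high light and 198, 164 and 147 in untreated leaves, overlapping at replicate 2 after high light, with a log2 difference of -0.46 ± 0.31 (adjusted p = 0.242). In Atwrky40.4 OE the signals were 136, 101 and 103 after high light and 62.8, 107 and 88.5 in untreated leaves. These groups overlapped too, and the log2 difference of 0.41 ± 0.31 (adjusted p = 0.307) had the opposite sign to that of Col0. In Atwrky63.3 OE the signals were 257, 115 and 423 after high light and 321, 223 and 285 in untreated leaves. The arrays after high light enclosed the untreated ones, replicate 2 being the lowest and replicate 3 the highest SAG101 signal of the series, and the log2 difference was -0.24 ± 0.31 (adjusted p = 0.552). Replicate 2, lowest here, was the array on which GRX480 was highest in that group.

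Against Col0 after high light, SAG101 was higher in Atwrky63.3 OE, with a log2 difference of 1.75 ± 0.31 (adjusted p = 0.00067), ranked 171st from the top of 15922, and its lowest array, at 115, lay above the highest Col0 array, at 79.3. The call held without Atwrky63.3 OE high light replicate 3, whose actin ratio was high, at 1.32 (adjusted p = 0.0106, with Col0 untreated replicate 2 left out as well), and ended when the arrays of these groups alone were fitted (adjusted p = 0.0721). In Atwrky40 KO (0.83 ± 0.31; adjusted p = 0.0758) and Atwrky40.4 OE (0.71 ± 0.31; adjusted p = 0.257) every array lay above the Col0 arrays, and neither difference passed the test. Without the 2 arrays of highest actin ratio the Atwrky40 KO difference passed it (adjusted p = 0.0375). In Atwrky63 KO the log2 difference was 0.13 ± 0.31 (adjusted p = 0.966), with overlapping arrays.

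In untreated leaves no line passed the test for SAG101. Every Atwrky63.3 OE array lay above every Col0 array, with a log2 difference of 1.00 ± 0.31 (95% interval 0.36 to 1.65; adjusted p = 0.0696), which passed when the arrays of these groups alone were fitted (adjusted p = 0.0167). The Atwrky40 KO arrays began just above the highest Col0 array (0.31 ± 0.31; adjusted p = 0.589), and the Atwrky40.4 OE arrays all lay below the lowest (-0.69 ± 0.31; adjusted p = 0.362). Atwrky63 KO overlapped Col0, with a log2 difference of 0.01 ± 0.31 (adjusted p = 0.995).

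None of the 4 interactions of SAG101 passed limma's test, at 1.40 ± 0.44 in Atwrky40.4 OE (adjusted p = 0.266), 0.75 ± 0.44 in Atwrky63.3 OE (adjusted p = 0.506), 0.52 ± 0.44 in Atwrky40 KO (adjusted p = 0.716) and 0.12 ± 0.44 in Atwrky63 KO (adjusted p = 0.966). So the lower SAG101 after high light in Col0 was not shown to differ from what the other lines did. The Atwrky40.4 OE interval, 0.49 to 2.31 before adjustment, lay above 0. Over both lights SAG101 was 2.47-fold higher in Atwrky63.3 OE than in Atwrky63 KO (1.31 ± 0.22; adjusted p = 0.000118), and the difference of Atwrky40.4 OE from Atwrky40 KO was -0.55 ± 0.22 (adjusted p = 0.0639).

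In order of mean log2 signal SAG101 was lowest in high-light Col0, followed by high-light Atwrky63 KO, untreated Atwrky40.4 OE, high-light Atwrky40.4 OE, high-light Atwrky40 KO, untreated Col0, untreated Atwrky63 KO, untreated Atwrky40 KO and high-light Atwrky63.3 OE, and highest in untreated Atwrky63.3 OE. Each group overlapped the next. SAG101 was called in 4 of the 19 comparisons.

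**Figure D2:**
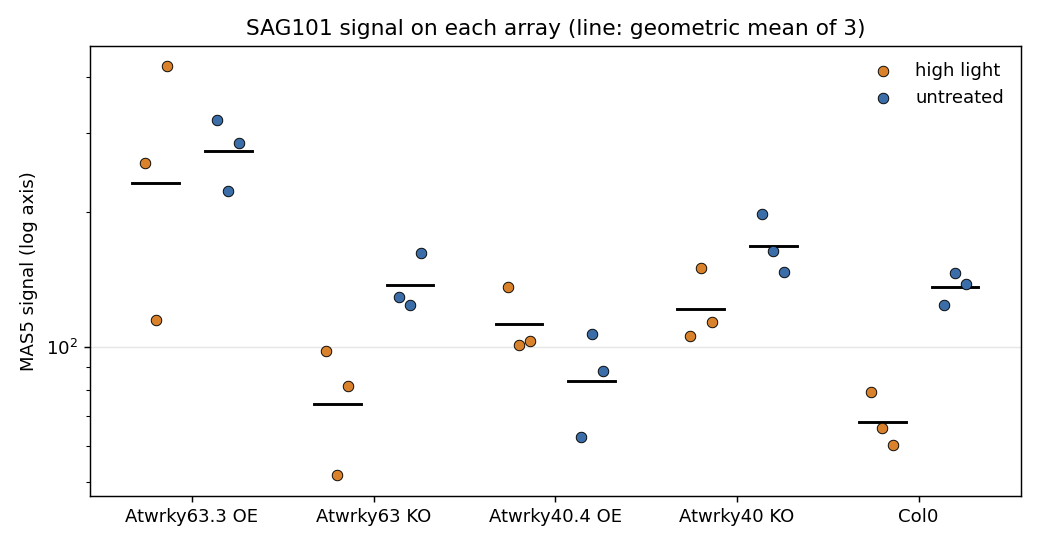
SAG101 signal (MAS5, log axis) on each of the 30 arrays by line, with high light left of untreated; points are arrays and lines the geometric mean of 3. The high-light Col0 arrays lie between 60.3 and 79.3, and those of high-light Atwrky63.3 OE spread between 115 and 423.

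Of 47 salicylate genes listed, 5 were named and 3 passed the filter: AT5G52810 (SARD4, a reductase of the pipecolic acid pathway), AT3G48080 (a near-identical copy of EDS1, the partner of SAG101, so its signal may come from either copy) and BSMT1, which methylates salicylate. SARD4 had signals of 1103, 663 and 904 in untreated Atwrky63.3 OE, against 332, 502 and 400.5 in untreated Col0, and the EDS1 copy 516, 391 and 456 against 86.0, 140.1 and 122. Neither overlapped between the groups, and both rose, where 4.26% of all probe sets were called. The share of all probe sets without overlap between these groups was not counted. The rises were 1.10 ± 0.21 (adjusted p = 0.00209) and 1.98 ± 0.55 (adjusted p = 0.0359) on the log2 scale. The call of the EDS1 copy ended without any 1 of the 6 arrays. Its median over the 30 arrays was 40.2, under the filter signal of 46.7. Its mean log2 signal reached the filter only with the untreated Atwrky63.3 OE arrays. It thus entered the test through the group in which it rose, and its rise there is not separate from the filter. After high light in Col0 both fell, with log2 differences of -0.91 ± 0.21 for SARD4 and -2.31 ± 0.55 for the EDS1 copy (adjusted p = 0.00106 and 0.00121), as SAG101 did. BSMT1 rose there, where 43.9% of all probe sets were called and the root marker PYK10 fell, with a log2 difference of 4.39 ± 0.97 (adjusted p = 0.000657). Its signals were 411, 672 and 761 after high light, against 17.7, 239 and 4.08 in untreated Col0. Untreated replicates 1 and 3 lay under 46.7, the signal at which the filter was set.

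In untreated Atwrky40 KO, SARD4 fell against Col0 (-0.74 ± 0.21; adjusted p = 0.0177), a call that ended without either Col0 replicate 2 or Atwrky40 KO replicate 1. None of the 3 salicylate genes passed the test in Atwrky40.4 OE or Atwrky63 KO against Col0 in either light. Nor did any in Atwrky40 KO and Atwrky63.3 OE after high light. These comparisons called 0.0251% to 15.2% of all probe sets. Over both lights 2 of 3, SARD4 and the EDS1 copy, were higher in Atwrky63.3 OE than in Atwrky63 KO, where 19.2% of all probe sets were called. BSMT1 lay the other way there without a call (-1.71 ± 0.69; adjusted p = 0.0833). Against Col0, BSMT1 also lay lower in Atwrky63.3 OE without a call. The log2 differences were -1.51 ± 0.97 in untreated leaves (adjusted p = 0.467) and -2.77 ± 0.97 after high light (adjusted p = 0.07). After high light 1 rose and 2 fell in Atwrky63.3 OE (51.2% of all probe sets called). In Atwrky40.4 OE (40.9%) and Atwrky63 KO (46.5%) 1 rose and 1 fell, and 0 passed in Atwrky40 KO (43.3%).

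Of 15 senescence-associated genes listed, WRKY53, a transcription factor that promotes leaf senescence, and WRKY6, another senescence-linked WRKY factor, were named and kept. Both were higher in high-light Atwrky63.3 OE than in high-light Col0, as SAG101 was: WRKY53 averaged 1769.6 ± 666, against 247 ± 64.1 in Col0 (2.78 ± 0.42; adjusted p = 0.000108), and WRKY6 245 ± 144, against 53.9 ± 3.19 (2.02 ± 0.52; adjusted p = 0.0136; not called without Atwrky63.3 OE replicate 3). WRKY53 was also higher than in Col0 in untreated Atwrky63.3 OE (1.82 ± 0.42, adjusted p = 0.0098) and in high-light Atwrky40 KO (1.37 ± 0.42, adjusted p = 0.0255). WRKY6 was lower in untreated Atwrky40.4 OE (-2.05 ± 0.52, adjusted p = 0.0298). These calls ended under 2, 4 and 7 of the alternative settings. Among the settings that ended the WRKY6 call were leaving out Col0 untreated replicate 2 and leaving out the 2 arrays of highest actin ratio. In high-light Atwrky63.3 OE against Col0 10.2% of all probe sets were called. Over both lights WRKY53 and WRKY6 were higher in Atwrky63.3 OE than in Atwrky63 KO, where 19.2% of all probe sets were called. Both were lower in Atwrky40.4 OE than in Atwrky40 KO, where 27.8% were called. High light in Col0 called neither, and in each of the other 4 genotypes 1 of 2 rose. These high light comparisons called 40.9% to 51.2% of all probe sets.

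PDF1.2 was dominated by 1 array. Untreated Col0 had signals of 243, 6115 and 235, and replicate 2 was 3.97 on the log2 scale above the highest of the 29 other arrays. In all other groups PDF1.2 lay between 34.9 and 389. A near-identical copy, PDF1.2b (AT2G26020, on chromosome 2), showed the same: 70.0, 5383 and 150.2 in untreated Col0, with replicate 2 again the highest.

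On that array 3 probe sets were at least 4-fold above all 29 other arrays: PDF1.2, PDF1.2b (2.59 above on the log2 scale) and a probe set with no gene name (2.21 above). On 28 of the other arrays no probe set was, and Atwrky40 KO untreated replicate 1 had 3. The same array had the highest signal of its group for GRX480 (243) and SAG101 (146) too, by far smaller margins, and the highest actin ratio of the series. Whether the array's RNA quality had a part in its PDF1.2 signal was not tested. PDF1.2, PDF1.2b and PDF1.2c, the gene next to PDF1.2 on chromosome 5, resemble each other so closely that 1 probe may bind several of them, and the PDF1.2b probe set is of a type that Affymetrix marks as able to bind several transcripts, so these signals may not be separate.

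PDF1.2 had 279, 191 and 341 after high light in Col0, which overlapped the untreated arrays. The log2 difference was -1.42 ± 0.76 (adjusted p = 0.139), and 0.14 (adjusted p = 0.857) without untreated replicate 2. Without either of the other untreated Col0 arrays, which leaves the bright array more weight, it passed the test at -2.18 (adjusted p = 0.0329) and -2.21 (adjusted p = 0.0302). So no direction was settled for PDF1.2 in Col0. In Atwrky40 KO the signals were 66.9, 73.9 and 51.1 after high light and 260.4, 78.1 and 343 in untreated leaves. Every array after high light lay below every untreated one, of which replicate 2 was the lowest, and the log2 difference was -1.58 ± 0.76 (adjusted p = 0.0975).

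In Atwrky40.4 OE, PDF1.2 had 120.4, 52.2 and 77.6 after high light and 71.9, 74.2 and 107 in untreated leaves. These groups overlapped throughout and gave a log2 difference of -0.08 ± 0.76 (adjusted p = 0.95). In Atwrky63 KO the signals were 82.8, 69.1 and 212 after high light and 86.5, 34.9 and 55.9 in untreated leaves. The groups overlapped, with replicate 3 highest after high light, and the log2 difference was 0.94 ± 0.76 (adjusted p = 0.333). In Atwrky63.3 OE the signals were 371, 389 and 318 after high light and 176, 295 and 114 in untreated leaves. The arrays after high light lay close together and above all untreated ones, with a log2 difference of 0.98 ± 0.76 (adjusted p = 0.295).

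The bright Col0 array entered the estimate of the spread for PDF1.2 in every comparison, since all 30 arrays share it, and the standard error was 0.76 for each pair of groups. Leaving it out, an alternative chosen after its signal had been seen, lowered the standard error to 0.46. The high light difference in Atwrky40 KO, still -1.58, then passed the test (adjusted p = 0.00705), as it did on the 6 arrays of these groups alone (adjusted p = 0.0243). The difference in Atwrky63.3 OE, still 0.98, did not pass without that array (adjusted p = 0.0782) and did on its own 6 arrays (adjusted p = 0.0308).

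In untreated leaves PDF1.2 was called lower than in Col0 in Atwrky63 KO (-3.65 ± 0.76; adjusted p = 0.0238) and in Atwrky40.4 OE (-3.07 ± 0.76; adjusted p = 0.0262), and these differences ranked 2nd and 10th from the bottom of 15922. Neither group overlapped Col0, whose lowest array was at 235. Both calls ended without Col0 untreated replicate 2, where the differences were -2.09 (adjusted p = 0.106) in Atwrky63 KO and -1.51 (adjusted p = 0.217) in Atwrky40.4 OE. Without any 1 of the arrays of the line itself they ended as well, with adjusted p from 0.0592 to 0.135 in Atwrky63 KO and from 0.0621 to 0.101 in Atwrky40.4 OE. They also ended when the 6 arrays of the groups compared were fitted alone (adjusted p = 0.241 and 0.251). Atwrky40 KO (-1.88 ± 0.76; adjusted p = 0.107) and Atwrky63.3 OE (-1.96 ± 0.76; adjusted p = 0.166) overlapped Col0, and without the bright array their differences were -0.32 and -0.40.

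The comparison with Col0 after high light does not use the bright array for its means. The log2 difference of PDF1.2 there was -2.04 ± 0.76 (adjusted p = 0.074) in Atwrky40 KO and -1.73 ± 0.76 (adjusted p = 0.264) in Atwrky40.4 OE, and in both lines every array lay below the lowest Col0 array, at 191. Neither passed with all 30 arrays, and both did without the bright array, at the same differences (adjusted p = 0.0027 in Atwrky40 KO and 0.0408 in Atwrky40.4 OE). Atwrky63 KO (-1.29 ± 0.76; adjusted p = 0.705) and Atwrky63.3 OE (0.44 ± 0.76; adjusted p = 0.779) overlapped Col0. Both WRKY40 lines thus lay on the same side of Col0, and the difference of Atwrky40.4 OE from Atwrky40 KO over both lights was -0.44 ± 0.54 (adjusted p = 0.604).

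Over both lights PDF1.2 was 3.28-fold higher in Atwrky63.3 OE than in Atwrky63 KO (1.71 ± 0.54; adjusted p = 0.0263). This comparison holds no Col0 array, and without the bright array in the spread its adjusted p was 0.000463. The call ended, at differences of 1.54 to 1.62 (adjusted p = 0.0569 to 0.0712), without Atwrky63.3 OE untreated replicate 2, without Atwrky63 KO untreated replicate 2 and without Atwrky63 KO high light replicate 1 or 2. The interactions, all of which use the bright array, were 2.40 ± 1.08 in Atwrky63.3 OE (adjusted p = 0.369), 2.36 ± 1.08 in Atwrky63 KO (adjusted p = 0.475), 1.34 ± 1.08 in Atwrky40.4 OE (adjusted p = 0.858) and -0.16 ± 1.08 in Atwrky40 KO (adjusted p = 0.981).

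PDF1.2 was lowest in untreated Atwrky63 KO by mean log2 signal, followed by high-light Atwrky40 KO, high-light Atwrky40.4 OE, untreated Atwrky40.4 OE, high-light Atwrky63 KO, untreated Atwrky63.3 OE, untreated Atwrky40 KO, high-light Col0 and high-light Atwrky63.3 OE, and highest in untreated Col0. Each group overlapped the next. PDF1.2 was called in 3 of the 19 comparisons, of which 2 rest on the bright array.

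**Figure D3:**
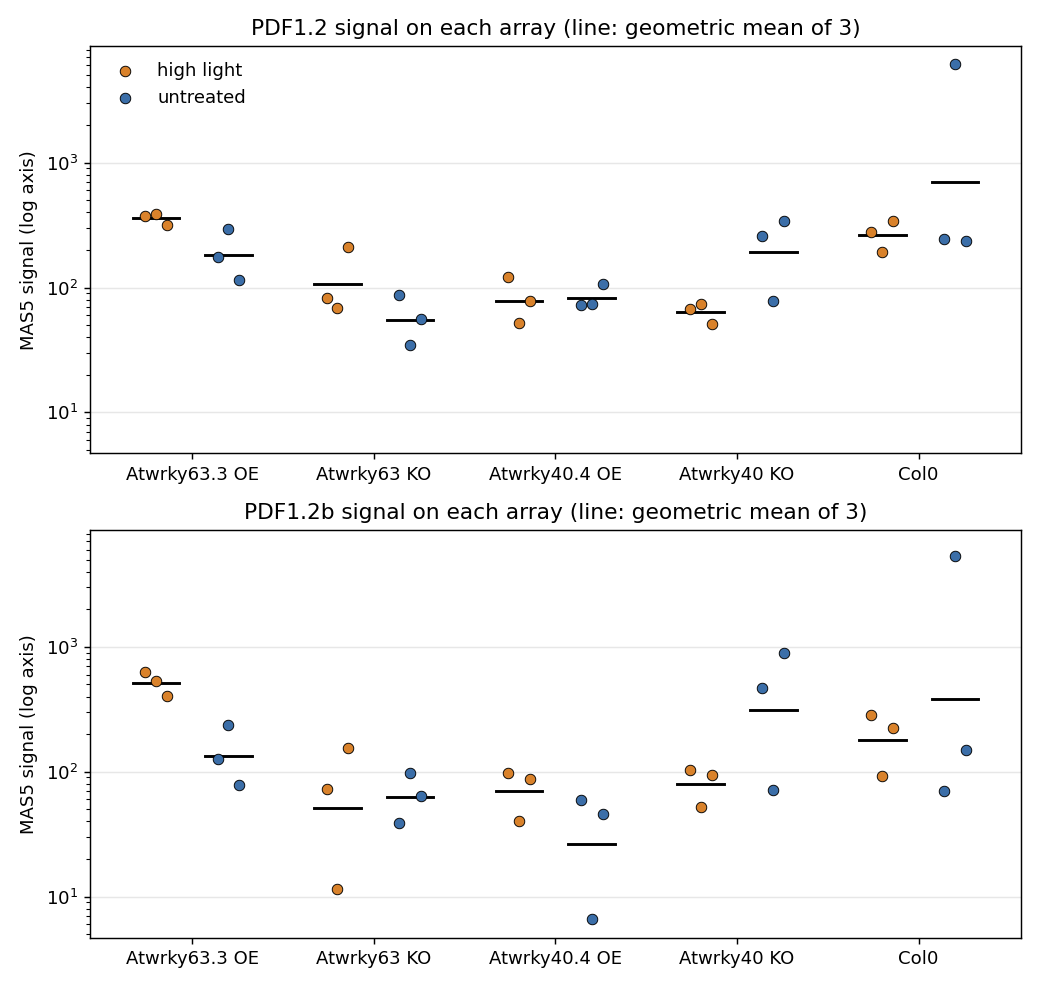
PDF1.2 (upper panel) and PDF1.2b (lower panel) signals (MAS5, log axis) on each of the 30 arrays by line, with high light left of untreated; points are arrays and lines the geometric mean of 3. In both panels Col0 untreated replicate 2 lies far above every other array, at 6115 for PDF1.2 and 5383 for PDF1.2b.

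Outside that array PDF1.2b had 635, 533 and 401 in high-light Atwrky63.3 OE and 104, 52.5 and 95.0 in high-light Atwrky40 KO, against 284, 93.1 and 225 in high-light Col0. Its Atwrky63.3 OE arrays lay above the Col0 ones, and its Atwrky40 KO arrays overlapped them. In untreated Atwrky40 KO it had 473, 71.8 and 896, with replicate 2 the lowest as in PDF1.2. It passed the test in none of the 19 comparisons, and its difference of Atwrky63.3 OE from Atwrky63 KO over both lights was 2.18 ± 0.79 (adjusted p = 0.0538).

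Of 13 plant defensins listed, 10 were named and 4 passed the filter on low signals. High light in Col0 lowered LCR69 to 1947 ± 354, against 4994 ± 449.9 in untreated leaves (-1.37 ± 0.17; adjusted p = 2.75e-07), and LCR68 by a log2 difference of -0.41 ± 0.12 (adjusted p = 0.00578), with 0 of 4 raised. In the other genotypes 1 or 2 of the 4 fell and 0 rose. Of all probe sets 43.9% were called after high light in Col0 and 40.9% to 51.2% in the other genotypes, with more lower than higher in each. No defensin of the list passed limma's test in any line against Col0 in either light, where 0.0251% to 15.2% of all probe sets were called. PDF1.4 was higher in Atwrky63.3 OE than in Atwrky63 KO over both lights (1.50 ± 0.34; adjusted p = 0.00238), as PDF1.2 was, and LCR69 was higher in Atwrky40.4 OE than in Atwrky40 KO (0.44 ± 0.12; adjusted p = 0.00647).

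Of 50 jasmonate genes listed, 7 were named and all 7 kept, PDF1.2b among them. High light in Col0, in which 43.9% of all probe sets were called and the root marker PYK10 fell, raised 4 and lowered 0, with a median of 1.23 beside -0.18 over all probe sets. JMT, which methylates jasmonate, had 1368, 1666 and 1971 after high light, against 142, 175 and 97.3 in untreated Col0 (3.61 ± 0.33; adjusted p = 1.99e-09). ORA47, a transcription factor that activates jasmonate synthesis, rose too, with a log2 difference of 2.80 ± 0.76 (adjusted p = 0.00395). The other 2 that rose were OPCL1, an enzyme of jasmonate synthesis, and MYC4, a transcription factor of the jasmonate response. PDF1.2 was not called there, nor were its relative PDF1.2b and THI2.1, a thionin induced by jasmonate.

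JMT was lower than in Col0 after high light in 3 of the lines. It had 467, 822 and 329 in Atwrky63.3 OE, 240.2, 345 and 769 in Atwrky40.4 OE and 651, 499 and 559 in Atwrky40 KO, all below the Col0 arrays. The Atwrky63 KO arrays, at 775, 772 and 1005, also lay below every Col0 array, with a log2 difference of -0.97 ± 0.33 that did not pass the test (adjusted p = 0.405). The other log2 differences from high-light Col0 were -1.72 ± 0.33 (adjusted p = 0.00144), -2.04 ± 0.33 (adjusted p = 0.000656) and -1.54 ± 0.33 (adjusted p = 0.00169) in Atwrky63.3 OE, Atwrky40.4 OE and Atwrky40 KO. OPCL1 was lower in high-light Atwrky40 KO (-1.04 ± 0.32; adjusted p = 0.0285), a call that ended without Col0 replicate 2 or 3 and without Atwrky40 KO replicate 1 or 3. The JMT call in Atwrky40.4 OE ended on the 6 arrays of the groups alone. None of the 7 passed in any line against Col0 in untreated leaves or in high-light Atwrky63 KO. After high light 4 rose in Atwrky40 KO (43.3% of all probe sets called) and 3 in Atwrky40.4 OE (40.9%). In Atwrky63 KO 3 rose and 2 fell (46.5%), and in Atwrky63.3 OE 3 rose and 1 fell (51.2%). No interaction was called in the list, so the responses of these genes to high light were not shown to differ from that in Col0.

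**Figure D4:**
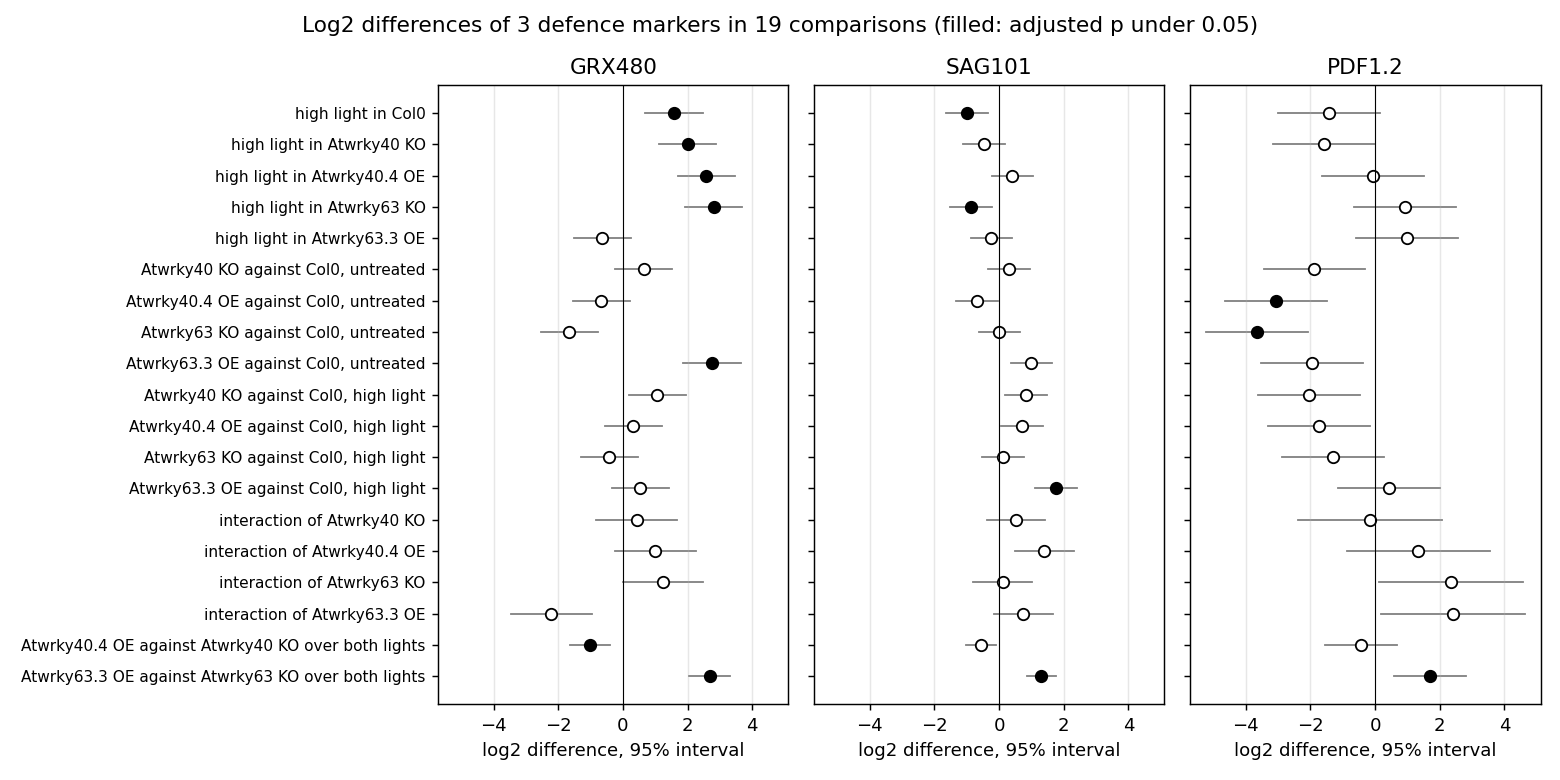
Log2 differences (horizontal axis, log2 of signal + 1) of GRX480, SAG101 and PDF1.2 in the 19 comparisons, first-named group minus its reference; bars are 95% intervals before adjustment and filled points passed the adjusted test. GRX480 has 7 filled points, SAG101 4 and PDF1.2 3, and the PDF1.2 intervals are the widest.

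The 3 genes were weakly correlated with each other. Across the 10 group means of log2 signal, as a description, Pearson's r was 0.28 between GRX480 and SAG101, 0.14 between GRX480 and PDF1.2 and 0.28 between SAG101 and PDF1.2. The values with PDF1.2 rest in part on the bright array, which raises its untreated Col0 mean, and were not given without that array. The comparison of Atwrky63.3 OE with Atwrky63 KO over both lights was the 1 in which all 3 were called, each of them higher, among 19.2% of all probe sets called there. In untreated Atwrky63.3 OE against Col0, GRX480 was called, SAG101 was not, and PDF1.2 lay lower without a call. The probe sets most like each gene were sought among 8767 kept ones that name 1 gene, by r over the same 10 group means.

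For GRX480 these were AT3G55960 (0.93), AT4G24100 (0.92) and AT4G31860 (0.92). AT3G55960 stayed first when quantile normalization was used or Col0 untreated replicate 2 was left out. For SAG101 they were AT1G16180 (0.97), AT3G28850 (0.95) and AT1G34750 (0.95), none of which was among the first 3 after quantile normalization. For PDF1.2 they were PDF1.2b (0.84), CAF1 (0.83) and AT2G46170 (0.80). PDF1.2b stayed first in both alternatives, at 0.78 without Col0 untreated replicate 2, while the other two did not stay among the first 3.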

How the data were processed

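RNA from leaves was hybridised to 30 Affymetrix ATH1 arrays, 10 groups of 3, with groups and replicate numbers taken from the sample titles. Each probe set has 1 deposited intensity, linear in scale, that the authors computed with MAS5, per the submitters' processing notes, which leave its version and settings unstated. With the top and bottom 2 percent of probe sets trimmed, the mean intensity was 500.0 to 500.1 on each array, so the deposited arrays share a scale. Detection calls were not used here, and so no probe set is described as above or below background. Medians were 148 to 165 after high light and 169 to 187 in untreated leaves. The number of arrays, 3 a group, limits the precision.

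Of 22810 probe sets, 64 controls were left out. After a pseudocount of 1 and log2, the 15922 probe sets whose mean reached the 30th percentile, equal to a signal of 46.7, were kept; GRX480 lay under that signal on 2 arrays, PDF1.2 on 1 and SAG101 on 0. A model of 10 group means was fitted to all arrays with limma 3.58.1 in R 4.3.3 (empirical Bayes with a variance trend), with Benjamini-Hochberg adjustment within each of 19 comparisons: high light in each genotype, each line against Col0 in each light, 4 interactions, and overexpressor against knockout over both lights. The pseudocount shrinks log2 differences mainly at the lowest signals. It does not make the differences of dim probe sets precise, since their arrays can vary widely, as for BSMT1 in untreated Col0 (17.7, 239 and 4.08). The fit was tested on simulated data.

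Probe sets were named by the platform's annotation, parts of which may be out of date: 13513 probe sets name 1 gene, 503 several, and 8730 are unnamed here, so most genes of the lists have no value. Gene order came from RefSeq's TAIR10.1 table. No sequence or genome was used. The members and the lists were chosen with earlier results of these data known. The rule for named genes took the 3 members, the 3 probe sets most like each, and of each list up to 2 rising and 2 falling called genes, by size, for high light in Col0 and each line against Col0; counts were given elsewhere, and OPCL1 and MYC4, THI2.1, PDF1.2b, PDF1.4 and LCR69 were added there after their values were seen. Alternatives were another pseudocount, other filters, quantile normalization, no variance trend, a replicate block, the compared groups alone, and leaving out arrays.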

Additional observations from a re-analysis of the deposited data

How the results depend on the processing

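Of the 57 member results, none changed direction where it had been called. Without the 2 arrays of highest actin ratio, PDF1.2 differences ended their calls in untreated Atwrky63 KO (-2.09) and Atwrky40.4 OE (-1.51), and passed after high light in Atwrky40 KO (-1.58) and against high-light Col0 in Atwrky40 KO (-2.04) and Atwrky40.4 OE (-1.73); the SAG101 differences passed in high-light Atwrky40 KO against Col0 (0.83) and for Atwrky40.4 OE against Atwrky40 KO (-0.55). Without Col0 untreated replicate 2 alone, chosen after seeing the data, the same 3 PDF1.2 high light differences passed (-1.58, -2.04 and -1.73). With the compared arrays alone, which leaves fewer arrays for the spread, PDF1.2 lost both untreated calls (-3.65 and -3.07) and SAG101 that of high-light Atwrky63.3 OE (1.75); PDF1.2 passed after high light in Atwrky40 KO (-1.58) and Atwrky63.3 OE (0.98) and in high-light Atwrky40 KO against Col0 (-2.04), SAG101 in untreated Atwrky63.3 OE (1.00) and for Atwrky40.4 OE against Atwrky40 KO (-0.55), and GRX480 in high-light Atwrky40 KO against Col0 (1.06). Quantile normalization ended the SAG101 call in Atwrky63 KO after high light (-0.58). The cause was not tested.

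Leaving out single arrays changed a call in 10 results. PDF1.2 ranged from -2.21 to 0.14 for high light in Col0, from -2.22 to -1.16 for high light in Atwrky40 KO, from -2.67 to -0.32, -3.86 to -1.51 and -4.44 to -2.09 in untreated Atwrky40 KO, Atwrky40.4 OE and Atwrky63 KO against Col0, and from 1.54 to 1.96 for Atwrky63.3 OE against Atwrky63 KO. SAG101 ranged from -1.06 to -0.61 for high light in Atwrky63 KO and from -0.64 to -0.45 for Atwrky40.4 OE against Atwrky40 KO. GRX480 ranged from -2.19 to -1.19 in untreated Atwrky63 KO and from -2.65 to -1.78 in the Atwrky63.3 OE interaction. Another pseudocount, no filter and no variance trend changed no member's call; the filter at the 50th percentile, run for GRX480, which alone passed it, changed none.

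Same-numbered arrays correlated between -0.126 and 0.319 in their deviations, below 0.1 for at least 1 pair in every comparison, so the numbers were not taken as pairing. With the replicate block no member's call changed (GRX480 in untreated Atwrky63.3 OE 2.75, adjusted p = 7.32e-05), and the called probe sets of the Atwrky63 KO interaction fell to 5, against 18.

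Counts of called probe sets moved by more than 1.5 times as follows. With the compared arrays alone they were 1373 against 2271 in untreated Atwrky40 KO, 239 against 390 in untreated Atwrky40.4 OE, 17 against 80 in untreated Atwrky63 KO, 131 against 388 in high-light Atwrky40.4 OE, 2 against 4 in high-light Atwrky63 KO, 439 against 1621 in high-light Atwrky63.3 OE, and 104 against 164, 0 against 35, 10 against 18 and 9 against 66 in the Atwrky40 KO, Atwrky40.4 OE, Atwrky63 KO and Atwrky63.3 OE interactions. Without single arrays they ranged, in untreated leaves, from 218 to 417 in Atwrky40.4 OE and 6 to 111 in Atwrky63 KO (both lowest without Col0 replicate 2) and 308 to 592 against 678 in Atwrky63.3 OE (lowest without its own replicate 1). After high light they ranged from 188 to 532 in Atwrky40.4 OE (lowest without its replicate 2), 1 to 10 in Atwrky63 KO (Col0 replicate 3) and 868 to 1658 in Atwrky63.3 OE (its replicate 3). In the interactions they ranged from 104 to 194 in Atwrky40 KO (high-light Col0 replicate 2), 3 to 64 in Atwrky40.4 OE (untreated Col0 replicate 2), and 1 to 13 in Atwrky63 KO and 9 to 158 in Atwrky63.3 OE (each its own untreated replicate 1). Without the 2 arrays of highest actin ratio they were 247, 4 and 947 in untreated Atwrky40.4 OE, untreated Atwrky63 KO and high-light Atwrky63.3 OE, and 10, 1 and 26 in the last 3 interactions. The Atwrky40.4 OE and Atwrky63 KO interactions, and high-light Atwrky63 KO, also moved with the filter, down to 11, 5 and 2. Quantile normalization gave 23 and 6 in these interactions, a pseudocount of 16 gave 0 and no variance trend 6 in the Atwrky63 KO one. With quantile normalization 42.3% of calls, against 30.5%, were higher for high light in Atwrky63 KO, 44.0%, against 54.1%, in high-light Atwrky40.4 OE and 100%, against 50%, in the Atwrky63 KO interaction.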

Other observations

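Genes along the chromosome from each member were also looked at in Atwrky40 KO, the line with the most calls against Col0 (14.3% untreated and 15.2% after high light). Of the 20 nearest kept and named probe sets, 10 on each side, those of GRX480 held 2 calls in untreated leaves and 4 after high light, those of SAG101 4 and 6, and those of PDF1.2 4 and 4. In each set both higher and lower calls occurred. No test was made of these counts.

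UGT76B1, which adds glucose to a regulator of salicylate defence, had signals too low to enter the test. It ran from 1.23 to 118 over the 30 arrays with a median of 14.2, and was highest on Atwrky63.3 OE untreated replicate 1, the array on which SARD4 (1103) and the EDS1 copy (516) were also highest of all 30. GRX480, at 1019 there, was higher on 2 arrays, Atwrky40 KO high light replicate 2 (1111) and Atwrky63.3 OE high light replicate 2 (1034). THI2.1, a jasmonate-induced thionin that entered the test, ran from 48.7 to 667. It was highest on Col0 untreated replicate 2, the array that was also highest for PDF1.2 and PDF1.2b. Unlike these, THI2.1 did not stand apart there, with 634 on Atwrky40 KO untreated replicate 1 and 587 on Atwrky63 KO untreated replicate 1.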
